A study of Danio rerio with 24 samples.

Results

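The carboxypeptidases described here are cpa4, cpa5 and cpa1, which belong to the A group made by the exocrine pancreas, and cpn1, the catalytic subunit of the plasma enzyme carboxypeptidase N. They were found by gene symbol in the array annotation. These are 4 of the 8793 genes measured, and they were read by 5 of the 15502 probe sets tested. A probe set is a group of short probes against 1 transcript. cpa4 had 2 probe sets, called here the brighter and the second by their mean score, and cpa5, cpa1 and cpn1 had 1 each. In the RefSeq gene table of assembly GRCz12tu, cpa1 and cpa5 were direct neighbours, cpa4 stood on the same chromosome with 46 protein-coding genes between it and cpa1, and cpn1 stood on another chromosome.

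The samples came from zebrafish embryos homozygous for the transgene Tg(XlEef1a1:GFP)s854, which carries the promoter region of a frog elongation factor gene and whose GFP is used to mark the digestive organs. The ages were 2, 3, 4 and 6 days post fertilization (dpf), and flow sorting split the dissociated cells between a GFP+ gate and a GFP- gate. Both gates carried the transgene, and all embryos had been kept in phenylthiourea to prevent pigment. Each gate at each age gave 3 arrays, so there were 24 arrays in 8 groups, with a GFP+ and a GFP- sample from each replicate. The sources used here do not say how many embryos were pooled per sample or whether replicates were separate clutches, so a p-value here reflects only how far these samples scatter, which may be technical.

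Metallocarboxypeptidases remove amino acids 1 at a time from the carboxyl end of proteins. Acinar cells of the pancreas store A- and B-type carboxypeptidases as inactive zymogens beside trypsinogen, chymotrypsinogen, elastases and lipases, and trypsin activates them in the gut. The A type prefers aromatic and aliphatic ends, and the B type prefers arginine and lysine. Carboxypeptidase N comes from hepatocytes and circulates in active form, where it trims arginine or lysine from kinins and from the complement fragments C3a and C5a. In zebrafish the liver and the exocrine pancreas both form from endoderm and grow over the days sampled here.

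All values are scores: on each array the median probe set is at 0 and the standard deviation (SD) over all probe sets is 1, so a score counts array SDs from the array median. Levels of different probe sets were not compared with each other. For the permutation tests below the mean of cpa4, cpa5 and cpa1 minus cpn1 was formed on each array. Only differences of that value between groups were compared. Within-group correlations between arrays lay between 0.893 and 0.983. The median of 7 hepatocyte markers was 1.60 to 3.61 on GFP+ arrays and -0.41 to 2.86 on GFP- arrays, and at 4 dpf their ranges in the gates met. The median of 6 neuron markers was -0.20 to 0.33 on GFP+ arrays and 0.42 to 2.17 on GFP- arrays. Some other marker lists set the gates less apart. At 2 dpf the median of 3 skeletal muscle markers was 1.26 to 1.57 on GFP+ and 1.34 to 1.75 on GFP- arrays, with overlap. That of 5 epidermis markers was then 1.17 to 1.82 on GFP+ and 2.38 to 2.59 on GFP- arrays. The 4 enterocyte markers had 1.71 to 2.105 on GFP+ arrays of 6 dpf, against 1.43 to 1.65 on GFP- arrays. The EGFP control probe set lay below the array median on every array, at -0.70 to -0.18 in GFP+ and -0.57 to -0.40 in GFP- samples, so it does not check the gates.

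cpa4 was the member already higher in GFP+ cells at 2 dpf. At that age its brighter probe set had scores of 1.51, 1.02 and 0.90 on the GFP+ arrays, against -0.49, -0.27 and -0.33 on the GFP- arrays. A day later the GFP+ arrays had 2.50, 2.12 and 2.22, against -0.04, 0.01 and -0.09 for GFP-. The gates were thus apart on every array of both ages. At 4 dpf they overlapped, with 3.33, 2.06 and 3.15 in GFP+ cells against 1.40, 0.17 and 2.38 in GFP- cells. By 6 dpf they were apart again, with 3.85, 3.87 and 3.93 against 2.87, 2.74 and 3.26. The second cpa4 probe set overlapped at the same age and at no other. It had 1.05, 0.52 and 0.36 in GFP+ cells at 2 dpf, against -0.55, -0.33 and -0.47 in GFP- cells. Its 6 dpf scores were 3.45, 3.47 and 3.55 in GFP+ cells, against 1.70, 2.03 and 2.76 in GFP- cells. Both probe sets correlated at r = 0.985 over the 24 arrays, which share their 8 groups.

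cpa5, a carboxypeptidase A long used in zebrafish as a marker of exocrine pancreas, did not pass the test between the gates at 2 dpf. Its scores then were 0.21, -0.11 and -0.14 in GFP+ cells, against 0.23, 0.25 and 0.99 in GFP- cells, so every GFP+ array lay below every GFP- array. On day 3, the GFP+ arrays stood at 3.04, 2.59 and 2.80, against 0.72, 0.82 and 0.33 for the GFP- arrays, with no overlap. The 4 dpf arrays overlapped, at 3.75, 2.66 and 3.63 in GFP+ cells and 2.18, 0.38 and 2.96 in GFP- cells. The oldest GFP+ arrays had 3.98, 4.00 and 4.08, against 3.15, 3.31 and 3.63 for GFP-, and were apart.

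cpa1, the counterpart of the main A-type pancreatic enzyme of mammals, was still near or below its array medians at 3 dpf. It began at -0.71, -0.53 and -0.25 in GFP+ cells of 2 dpf, against -0.38, -0.56 and -0.64 in GFP- cells, and these overlapped. In 3 dpf samples it had 0.13, -0.02 and -0.29 in GFP+ cells, against -0.54, -0.71 and -0.49 in GFP- cells. The gates did not overlap there, although the difference did not pass the test. By rank from the top, cpa1 stood 98.0%, 76.9% and 60.0% of the way down the GFP+ arrays of 2 dpf. The GFP- arrays had 66.5%, 82.1% and 85.6% at 2 dpf and 79.9%, 90.4% and 77.4% at 3 dpf. It thus lay in the lower part of these arrays. The 4 dpf scores were 2.52, 0.45 and 2.49 in GFP+ cells, against -0.26, -0.67 and 1.15 in GFP- cells, again with overlap. In 6 dpf samples they were 3.40, 3.42 and 3.50 in GFP+ cells, against 1.65, 1.87 and 2.60 in GFP- cells, and every GFP+ array was above every GFP- array.

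cpn1, made by hepatocytes, increased with age in GFP+ cells and had no called change in GFP- cells. In 2 dpf samples its scores were -0.15, 0.13 and 0.35 in GFP+ cells, against 0.75, 0.62 and 1.28 in GFP- cells, so all GFP+ arrays were the lower ones. From 3 dpf the order of the gates was turned round without overlap. That age gave 1.42, 0.94 and 1.19 in GFP+ cells, against 0.40, 0.24 and 0.37 in GFP- cells. The 4 dpf arrays had 2.40, 1.56 and 2.35 in GFP+ cells, against 0.43, 0.23 and 1.50 in GFP- cells. The highest of these GFP- scores lay just under the lowest GFP+ score. The last age gave 2.42, 2.35 and 2.36 in GFP+ cells, against 0.60, 0.57 and 0.68 in GFP- cells.

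**Figure D1:**
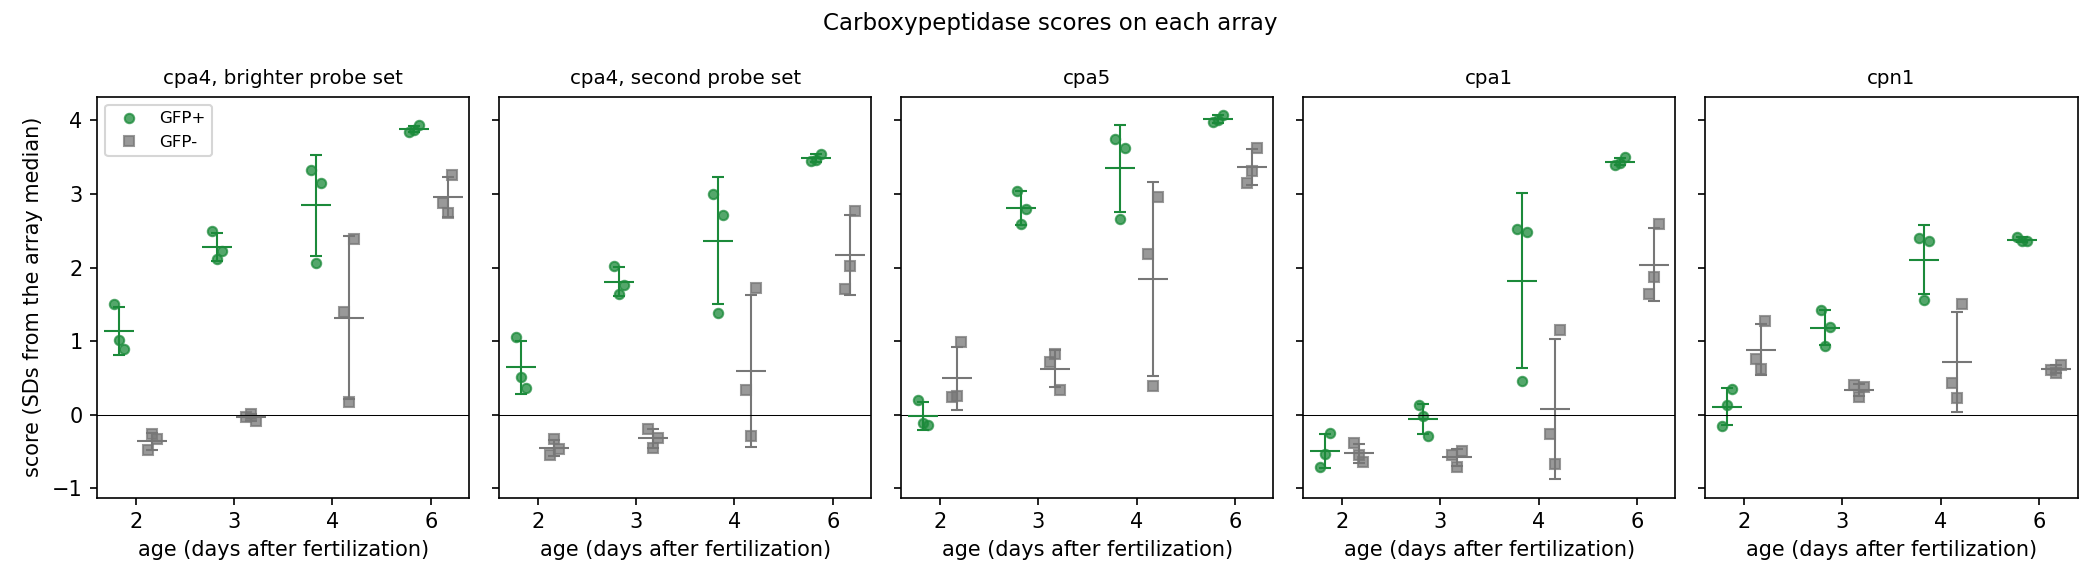
Score of each carboxypeptidase probe set (vertical axis, array SDs from the array median) on each of the 24 arrays by age in days after fertilization, with GFP+ as green circles and GFP- as grey squares. Horizontal marks are group means and bars are 1 SD (n = 3); the pancreatic members climb in both gates, while cpn1 climbs in GFP+ cells and stays between 0.23 and 1.50 in GFP- cells.

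The first question was whether the carboxypeptidases were enriched in the sorted digestive cells. Over the 4 ages together all 5 probe sets were higher in GFP+ than in GFP- cells. The difference was 1.57 ± 0.18 (SE) and 1.58 ± 0.20 for the 2 probe sets of cpa4, 0.96 ± 0.21 for cpa5, 0.93 ± 0.22 for cpa1 and 0.80 ± 0.13 for cpn1. The limma test with Benjamini-Hochberg adjustment over all probe sets gave adjusted p-values between 4.31e-07 and 0.00117. Of all probe sets tested, 37.7% were higher in this comparison, so a call here was common. In these bulk samples, fewer cells of a type and less RNA per cell cannot be told apart.

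At 2 dpf 1 of the 5 probe sets was higher and 1 was lower, against 9.66% and 7.36% of all probe sets. cpa4 was higher by 1.50 ± 0.37 on its brighter probe set (adjusted p = 0.00652). Its second probe set differed by 1.095 ± 0.40 with an adjusted p of 0.0676, and with the replicate pairs as a block that adjusted p was 0.012. cpn1 was lower in GFP+ cells by -0.78 ± 0.26 (adjusted p = 0.044), with an adjusted p of 0.0065 when the pairs were a block. That call was lost when any of 4 arrays was left out: the first or second GFP+ array (adjusted p of 0.17 and 0.091), or GFP- replicate 1 or 3 (adjusted p of 0.0668 and 0.211). cpa5 had a difference of -0.51 (95% interval -1.38 to 0.36) and cpa1 one of 0.03 (-0.87 to 0.93), and neither passed the test.

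The 2 dpf libraries also differed between the gates in a sign of RNA quality. The 3' minus 5' score of the GAPDH control probe sets was 0.76, 0.40 and 0.53 in GFP+ samples and 0.24, 0.27 and 0.27 in GFP- samples, and its part in the cpa4 and cpn1 differences was not tested. The 3' score itself was 1.56, 1.68 and 1.85 in GFP+ samples and 2.48, 2.46 and 2.43 in GFP- samples. GAPDH signal thus differed between the gates, so the 3' minus 5' score may not reflect RNA quality alone.

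At 3 dpf 4 of the 5 probe sets were higher in GFP+ cells, against 14.5% of all probe sets. cpa4 was higher by 2.32 ± 0.37 and 2.13 ± 0.40 (adjusted p = 7.43e-05 and 0.000406), cpa5 by 2.19 ± 0.42 (adjusted p = 0.000485) and cpn1 by 0.85 ± 0.26 (adjusted p = 0.0188). The cpn1 call was lost without the first GFP+ array (0.73, adjusted p = 0.0876) or the second GFP- array (0.80, adjusted p = 0.0546). cpa1 differed by 0.52 ± 0.43, with an adjusted p of 0.445.

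At 4 dpf all 5 probe sets were higher in GFP+ cells, against 19.0% of all probe sets. The differences were 1.53 ± 0.37 and 1.78 ± 0.40 for cpa4, 1.50 ± 0.42 for cpa5, 1.75 ± 0.43 for cpa1 and 1.39 ± 0.26 for cpn1, with adjusted p-values between 0.000361 and 0.00938. When the 6 arrays of this age were fitted alone, the pancreatic probe sets no longer passed (adjusted p between 0.0921 and 0.162) and cpn1 did.

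The 4 dpf arrays stood apart from one another. The second replicate was the lowest of its group for all 5 probe sets in both gates, and replicate 3 was the highest GFP- array for each. The GAPDH 3' minus 5' score was 0.05, 0.69 and 0.03 on the GFP+ arrays and 0.45, 0.41 and 0.20 on the GFP- arrays of this age, so the second GFP+ array stood apart in it too. Its part in the values was not tested. In each of the 3 pairs every probe set was nonetheless higher in the GFP+ sample than in the GFP- sample of the same replicate. For cpa1 the GFP+ sample exceeded its GFP- partner by 2.78, 1.12 and 1.34. For cpa5 the excess was 1.57, 2.28 and 0.66, and for cpn1 it was 1.97, 1.33 and 0.86.

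Other acinar and liver transcripts varied between these arrays too. The 12 other acinar genes were zymogens, digestive enzymes and the zymogen granule protein sycn.2. Their median was 3.54, 2.38 and 3.45 on the GFP+ arrays and 2.25, 0.37 and 2.83 on the GFP- arrays at 4 dpf. The 23 hepatocyte genes were those of plasma proteins and the liver fatty acid binding protein gene fabp10a. Their median was 2.99, 2.67 and 3.15 on the GFP+ arrays and 0.87, 0.61 and 2.27 on the GFP- arrays. The 4 enterocyte markers ran the other way, with the second replicate highest in both gates. Their median was 2.08, 3.05 and 2.41 on the GFP+ arrays and 0.80, 2.0 and 1.83 on the GFP- arrays. The part of these lists in the carboxypeptidase values was not tested. Without both second-replicate arrays all 5 calls at 4 dpf were kept, with differences of 1.35 and 1.82 for cpa4, 1.12 for cpa5, 2.06 for cpa1 and 1.42 for cpn1. Leaving out the second GFP- array alone gave 0.77 for cpa5, with an adjusted p of 0.0568, and 0.96 for the brighter probe set of cpa4, with an adjusted p of 0.0219.

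**Figure D2:**
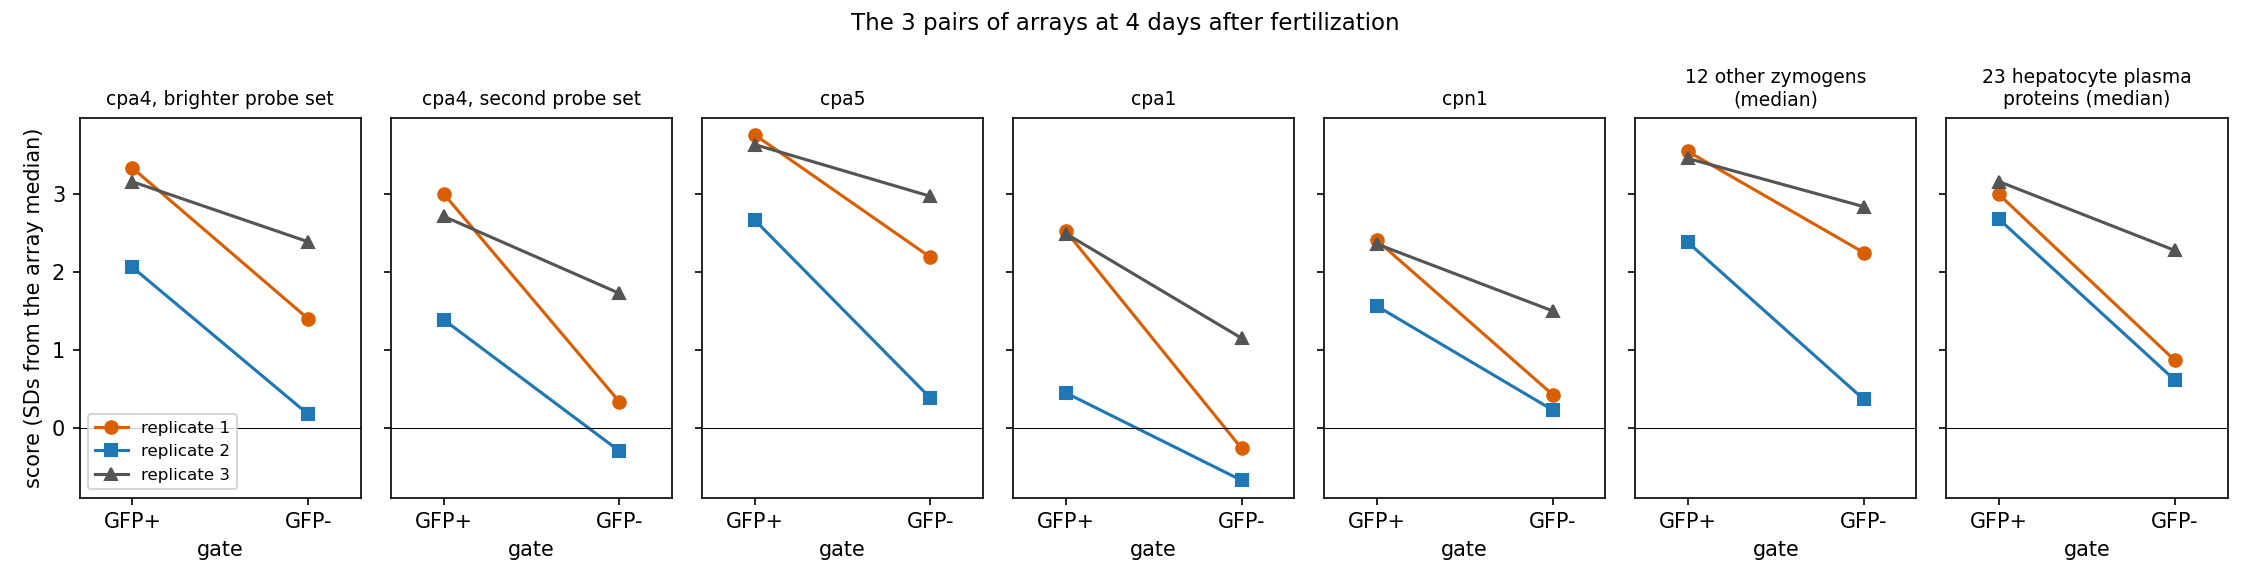
Scores at 4 days after fertilization (vertical axis, array SDs from the array median) in the GFP+ and the GFP- sample of each of the 3 replicates, joined by a line. The panels hold the 5 carboxypeptidase probe sets and the medians of 12 other acinar genes (panel titled zymogens) and 23 hepatocyte genes (panel titled plasma proteins). Every line falls toward GFP-, and replicate 2 is the lowest line in every panel.

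At 6 dpf 3 of the 5 probe sets were higher in GFP+ cells, against 23.2% of all probe sets. cpn1 had the difference with the smallest adjusted p, 1.76 ± 0.26 (adjusted p = 2.33e-05). cpa1 was higher by 1.40 ± 0.43 (adjusted p = 0.0152) and the second probe set of cpa4 by 1.32 ± 0.40 (adjusted p = 0.0135). Without the first GFP- array these fell short (adjusted p = 0.0662 for cpa1 and 0.0678 for cpa4), as did cpa1 without the second GFP- array (adjusted p = 0.0521). The brighter probe set of cpa4 differed by 0.92 ± 0.37 with an adjusted p of 0.0528, and of 0.00458 with the replicate pairs as a block. cpa5 differed by 0.65 (95% interval -0.22 to 1.53, adjusted p = 0.219).

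The other acinar genes outside the carboxypeptidases were also high in GFP- cells at 6 dpf. Their median was 3.84, 3.89 and 3.98 on GFP+ arrays and 3.17, 3.04 and 3.44 on GFP- arrays, while the hepatocyte list had 3.10, 3.10 and 3.20 against 1.02, 1.56 and 1.66. The GAPDH 3' minus 5' score at this age was -0.13, -0.10 and 0.27 in GFP+ samples and 0.85, 0.24 and 0.35 in GFP- samples. Its 3' score was 0.52, 0.42 and 0.27 in GFP+ samples and 2.85, 2.62 and 2.825 in GFP- samples. The part of these in the carboxypeptidase differences was not tested.

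**Figure D3:**
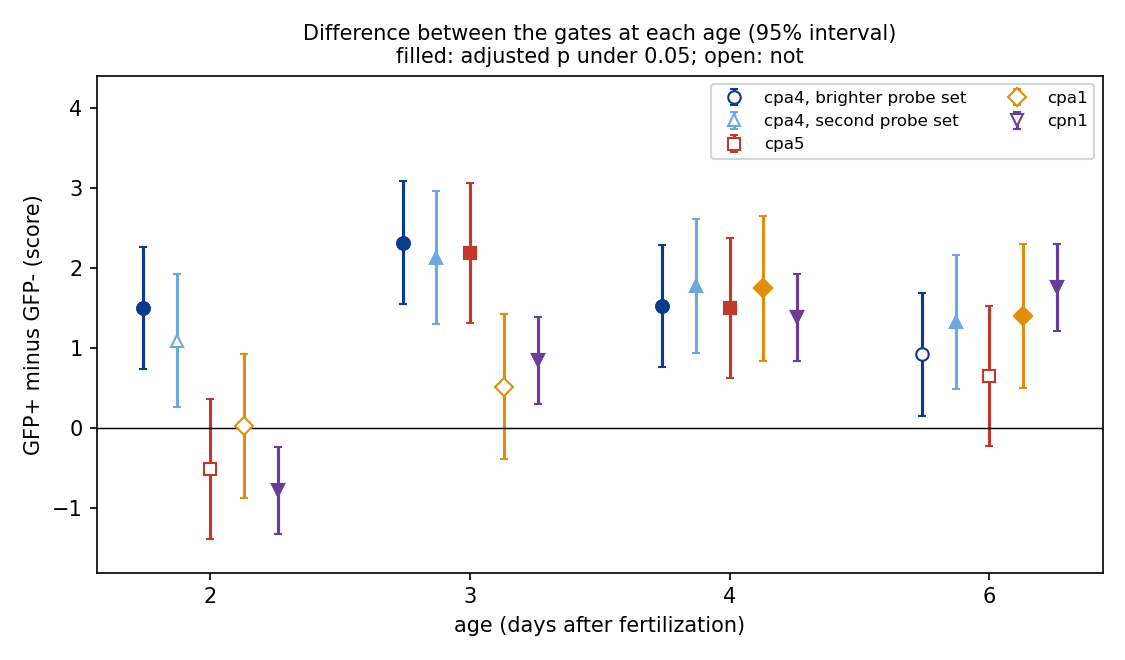
GFP+ minus GFP- difference in score (vertical axis) at each age in days after fertilization for the 5 probe sets, with 95% intervals from the limma fit; filled symbols passed an adjusted p of 0.05. cpa4 is above 0 at 2 days, cpa5 joins at 3 days and cpa1 at 4 days, while cpn1 runs from -0.78 at 2 days to 1.76 at 6 days.

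The second question was when each gene changed. In GFP+ cells all 5 probe sets were higher at 6 than at 2 dpf, against 9.17% of all probe sets, by 2.74 ± 0.37 and 2.85 ± 0.40 for cpa4, 4.04 ± 0.42 for cpa5, 3.93 ± 0.43 for cpa1 and 2.27 ± 0.26 for cpn1 (adjusted p between 8.8e-07 and 2.54e-05). In GFP- cells the 4 pancreatic probe sets were higher at 6 than at 2 dpf, against 8.77% of all probe sets, by 3.32 ± 0.37 and 2.62 ± 0.40 for cpa4, 2.87 ± 0.42 for cpa5 and 2.57 ± 0.43 for cpa1. cpn1 differed there by -0.27 (95% interval -0.81 to 0.27, adjusted p = 0.598).

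In GFP+ cells cpa5, cpa1 and cpn1 passed the test at single steps in age, and cpa4 passed at none. Between 3 and 2 dpf cpa5 rose by 2.83 ± 0.42 (adjusted p = 0.00102), the 1 of the 5 probe sets called where 0.535% of all were. Both cpa4 probe sets differed by 1.14 and 1.17 and cpn1 by 1.07 at this step, with adjusted p-values of 0.217, 0.271 and 0.0586. Between 4 and 3 dpf cpa1 rose by 1.88 ± 0.43 (adjusted p = 0.0118) and cpn1 by 0.92 ± 0.26 (adjusted p = 0.0357), 2 of 5 against 3.83%. Between 6 and 4 dpf cpa1 rose again by 1.62 ± 0.43 (adjusted p = 0.0344), 1 of 5 against 1.57%.

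These steps lean on the spread arrays of 4 dpf. Without the second GFP+ and GFP- arrays of 4 dpf, cpa4 and cpa5 also passed between 4 and 3 dpf in GFP+ cells, with differences of 0.96 and 1.05 for cpa4 and 0.88 for cpa5 (adjusted p = 0.00793, 0.037 and 0.0205). cpa1 was then higher by 2.57 between 4 and 3 dpf and by 0.93 between 6 and 4 dpf, and the later step no longer passed (adjusted p = 0.0887). Leaving out single arrays gave cpa1 1.53 to 2.57 at the earlier step and cpn1 0.77 to 1.195, with adjusted p-values of up to 0.0869 and 0.165.

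In GFP- cells none of the 5 probe sets was higher at 3 than at 2 dpf in the limma test, against 3.2% of all probe sets, and 1 had an unadjusted p under 0.05: cpn1, with a difference of -0.55 and an adjusted p of 0.339. Between 4 and 3 dpf the brighter probe set of cpa4 rose by 1.36 ± 0.37 (adjusted p = 0.0406), 1 of 5 against 1.5%. Between 6 and 4 dpf the same probe set rose by 1.64 ± 0.37 (adjusted p = 0.0496) and cpa1 by 1.96 ± 0.43 (adjusted p = 0.0444), 2 of 5 against 0.361%. The cpa4 step between 4 and 3 dpf was 0.82 without the third GFP- array of 4 dpf and 1.93 without the second, and the step between 6 and 4 dpf was 2.17 and 1.07. The cpa1 step between 6 and 4 dpf was 2.50 and 1.59. Each of these 3 calls was lost in 5 of 6 omissions of a single array, with adjusted p-values of up to 0.231 and 0.21 for the steps of cpa4 and 0.219 for cpa1.

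The order of the 8 groups summarises these levels. For cpa4, cpa5 and cpa1 the GFP+ cells of 6 dpf were the highest group, at mean scores of 3.88 ± 0.04, 4.02 ± 0.05 and 3.44 ± 0.05 (SD, n = 3; brighter probe set of cpa4), and their ranges did not meet the next group. The next groups were the GFP- cells of 6 dpf, at 2.96 ± 0.27, 3.37 ± 0.25 and 2.04 ± 0.50, and the GFP+ cells of 4 dpf, at 2.85 ± 0.69, 3.35 ± 0.60 and 1.82 ± 1.19, which overlapped each other for each gene. For cpn1 the GFP+ cells of 6 and 4 dpf came first, at 2.38 ± 0.03 and 2.11 ± 0.47, and overlapped. Its GFP+ cells of 2 dpf were the lowest group of all, at 0.11 ± 0.25, and overlapped the GFP- cells of 3 dpf, at 0.34 ± 0.08.

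The third question was whether the difference between the gates itself changed with age. An F test over the 4 ages passed for cpn1 (adjusted p = 0.000858) and cpa5 (adjusted p = 0.0268), 2 of 5 against 6.95% of all probe sets. cpa4 had adjusted p-values of 0.341 and 0.574, and cpa1 had 0.218, which was 0.0368 with the replicate pairs as a block. The cpa5 value went to between 0.0529 and 0.0788 without GFP+ replicate 2 or 3 or GFP- replicate 3 of 2 dpf, or without GFP+ replicate 1 or GFP- replicate 3 of 3 dpf.

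Between 6 and 2 dpf the difference between the gates grew by 2.54 ± 0.37 for cpn1 (adjusted p = 0.000208), 1 of 5 against 3.54% of all probe sets. It kept its call when each of the 12 arrays was left out in turn, with values of 2.34 to 2.67. cpa1 had 1.37 ± 0.61 (adjusted p = 0.191, and 0.0418 with the pairs as a block) and cpa5 had 1.16 ± 0.59 (adjusted p = 0.26). The cpa4 probe sets had -0.58 ± 0.52 and 0.23 ± 0.56. Between 3 and 2 dpf the difference grew for cpa5 by 2.69 ± 0.59 (adjusted p = 0.0355) and for cpn1 by 1.62 ± 0.37 (adjusted p = 0.0421), 2 of 5 against 0.168%, although most single omissions of an array took these past the threshold, with adjusted p-values of up to 0.122 for cpa5 and 0.143 for cpn1. For the changes between 4 and 3 dpf and between 6 and 4 dpf 0 of the 5 passed in limma, and 0 had an unadjusted p under 0.05. The share of all probe sets called in these changes is not given here, so the 0 is not read as a result about the members.

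Whether the pancreatic genes and cpn1 differed from each other was tested on 1 value per array, the mean of cpa4, cpa5 and cpa1 minus cpn1. The tests covered its difference between the gates and its change between 6 and 2 dpf within a gate. Whether its difference between the gates changed with age was not tested. The GFP+ minus GFP- difference of that value, pooled over the ages, was 0.35, with an exact two-sided permutation p of 0.0987. Taken age by age from 2 to 6 dpf, it was 1.12, 0.83, 0.21 and -0.77. The pooled value thus averages differences of opposite sign, so it does not show that the pancreatic genes and cpn1 were alike. Between 6 and 2 dpf the pancreatic mean minus cpn1 grew by 1.30 in GFP+ cells and by 3.19 in GFP- cells. With 3 arrays against 3 the exact test cannot give a p under 0.1, which was the value in all of these single comparisons except 4 dpf (exact p = 0.5). The regroupings did not keep the replicate pairs of GFP+ and GFP- samples together, and no paired version was run. Over the 7 tests the Benjamini-Hochberg values of these exact tests were 0.117, and 0.5 at 4 dpf.

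The other acinar enzymes give the setting for the pancreatic members. Of 27 listed zymogens, digestive enzymes and zymogen granule proteins 12 were measured. Pooling the ages left all 12 higher in GFP+ cells, where 37.7% of all probe sets were. Their median difference was 1.00, against 0.08 for all probe sets. At 2, 3, 4 and 6 dpf 2, 8, 11 and 2 of the 12 were higher, and none was lower, where 9.66%, 14.5%, 19.0% and 23.2% of all probe sets were higher. The count at 6 dpf was thus no larger than the share over all probe sets would give. At 2 dpf they were prss1, a trypsinogen (2.72 ± 0.30, adjusted p = 3.89e-06), and ctrb.1, a chymotrypsinogen (1.25, adjusted p = 0.0088). At 3 dpf ela2l, an elastase, differed by 2.25 (adjusted p = 0.000363). At 6 dpf they were pla2g1b, the pancreatic phospholipase (1.24, adjusted p = 0.0419), and amy2al1, an amylase (0.67, adjusted p = 0.0411). Between 6 and 2 dpf all 12 rose in both gates, where 9.17% of all probe sets in GFP+ and 8.77% in GFP- cells did. Their median rise was 4.14 in GFP+ cells and 3.625 in GFP- cells.

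Of 21 listed acinar transcription factors and secretory support genes 13 were measured. The list also holds endodermal factors such as gata6, so it does not single out acinar cells. Over the 4 ages 12 were higher, where 37.7% of all probe sets were. At 2 dpf 5 were higher, against 9.66% of all probe sets. Among them were pdia2, the disulfide isomerase of acinar cells (1.82, adjusted p = 0.000766), and gata6 (1.68, adjusted p = 1.52e-06). ptf1a, the factor that directs acinar fate, differed by 0.12 at 2 dpf (adjusted p = 0.793) and was higher by 0.86 at 6 dpf (adjusted p = 0.00889). cldn3c, a claudin, was lower at 4 and 6 dpf, by -1.14 and -1.55 (adjusted p = 0.00984 and 0.000674). Of 20 islet markers 12 were measured. Over the 4 ages 5 were higher, a share like the 37.7% of all probe sets, and 5 were lower. Of all 15502 probe sets 9055 were called in either direction over the ages, and 5844 of them were higher. At 2 dpf 5 were higher and 2 lower, against 9.66% and 7.36% of all probe sets. The hormone genes ins (insulin), gcga (glucagon), sst1.1 and sst2 (somatostatins) were higher then, by 1.85, 1.63, 1.11 and 1.92 (adjusted p = 0.000511, 6.45e-05, 0.000335 and 0.000307). At 2 dpf the hormone gene insb differed by 0.007 (adjusted p = 0.969), and the lower genes were pax6b (-1.11, adjusted p = 0.000212) and neurod1 (-1.08, adjusted p = 0.000362). At 6 dpf no marker was higher and 4 of the 12 were lower. These were neurod1 (-2.33, adjusted p = 3.65e-08), isl1a (-1.66, adjusted p = 2.2e-06), insm1b (-1.17, adjusted p = 5.65e-06) and the hormone gene gcga (-1.06, adjusted p = 0.00148). Neurons also express neurod1, isl1a and insm1b, so this list does not single out islet cells. Of all 15502 probe sets 5915 were called in either direction at 6 dpf, and 3603 of them were higher.

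cpn1 can be set beside its plasma substrates and the other hepatocyte proteins. Of 42 listed genes 23 were measured. The pooled ages had 22 of them higher in GFP+ cells, with a median difference of 1.55, where 37.7% of all probe sets were higher. By age 16, 19, 21 and 21 were higher and none was lower. Of all probe sets 9.66%, 14.5%, 19.0% and 23.2% were higher at these ages. At 2 dpf, where cpn1 was lower, kng1, the precursor of kinins, was higher by 2.17 (adjusted p = 3.16e-05), c3a.1, a complement C3 gene, by 1.37 (adjusted p = 0.00105) and fabp10a, the liver fatty acid binding protein, by 2.91 (adjusted p = 2.98e-07). Some list members, picked out after their values were seen, had no called difference at 2 dpf: c3a.6 had 0.01 (adjusted p = 0.982), itih3b.1 had -0.06 (adjusted p = 0.904) and rbp4, the retinol binding protein, had -0.68 (adjusted p = 0.0912). At 6 dpf these were higher by 2.30, 1.26 and 1.15 (adjusted p = 4.45e-06, 0.000523 and 0.00197). In GFP- cells 15 of the 23 were higher at 6 than at 2 dpf, where 8.77% of all probe sets were. The median difference of the 23 was 1.45, against the -0.27 of cpn1.

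Other carboxypeptidases did not share 1 pattern. Of 35 listed, 12 were measured. Over the 4 ages 5 were higher, a share like the 37.7% of all probe sets, and 2 were lower. Of all probe sets 9055 were called in either direction over the ages, 5844 of them higher. By age 3, 4, 3 and 0 were higher and 2, 2, 1 and 1 were lower at 2, 3, 4 and 6 dpf. Of all probe sets 9.66%, 14.5%, 19.0% and 23.2% were higher at these ages, and 7.36% were lower at 2 dpf. Those called in either direction numbered 4103, 4696 and 5915 of 15502 at 3, 4 and 6 dpf. Of these 2244, 2946 and 3603 were higher and the others were lower. cpb1, the pancreatic B-type zymogen, was higher by 1.62 ± 0.32 at 2 dpf, 2.16 ± 0.32 at 3 dpf and 1.04 ± 0.32 at 4 dpf (adjusted p = 0.00128, 4.02e-05 and 0.0182), and differed by 0.61 at 6 dpf (adjusted p = 0.138). Like cpa4, cpa5, cpa1 and the other acinar genes, it was higher at 6 than at 2 dpf in both gates. The difference was 2.35 in GFP+ cells and 3.36 in GFP- cells (adjusted p = 1.86e-05 and 4.61e-07). ace, the angiotensin-converting dipeptidyl carboxypeptidase, was higher at 2, 3 and 4 dpf by 0.99, 1.72 and 1.35 (adjusted p = 0.035, 0.000325 and 0.00262). At 6 dpf it differed by -0.0045 (adjusted p = 0.992). Between 6 and 2 dpf it rose by 1.22 in GFP- cells (adjusted p = 0.00881) and differed by 0.23 in GFP+ cells (adjusted p = 0.655).

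cpe, which processes prohormones in neurons and endocrine cells, ran the other way. It was lower in GFP+ cells at 3, 4 and 6 dpf by -1.42, -1.71 and -1.76 (adjusted p = 6.11e-06, 8.05e-07 and 3.13e-07). Between 6 and 2 dpf it fell by 0.50 in GFP+ cells (adjusted p = 0.0449) and rose by 1.00 in GFP- cells (adjusted p = 0.000336), and the change of the gate difference was -1.50 ± 0.25 (adjusted p = 0.000691). cpm, a membrane-bound form, was lower at 3 dpf (-0.49, adjusted p = 0.0373). The matrix-associated family members aebp1b and cpxm1a were lower at 2 dpf (-0.80 and -0.61, adjusted p = 0.00373 and 0.0343). The third GFP- array of 2 dpf was the highest of its group for both. aebp1b had -0.15, -0.33 and 0.84 on these GFP- arrays, against -0.655, -0.69 and -0.68 on the GFP+ arrays. cpxm1a had -0.02, -0.01 and 0.87 against -0.66, -0.36 and 0.01, and its gates overlapped. Of 5 listed protease inhibitor genes 3 were measured: lxn, timp2a and timp2b. lxn, latexin, an inhibitor of A-type carboxypeptidases in mammals, was the 1 called. It was higher in GFP+ cells at 3 dpf by 0.64 (adjusted p = 0.0248) and again at 6 dpf. At these ages 14.5% and 23.2% of all probe sets were higher. The lxn scores at 6 dpf were 1.96, 2.02 and 1.61 in GFP+ cells and 0.82, 1.40 and 0.82 in GFP- cells. The difference was 0.85 ± 0.21 (adjusted p = 0.00304), without overlap. ctsa and prcp, lysosomal serine carboxypeptidases, had small differences: ctsa was higher at 2 and 3 dpf, by 0.43 and 0.31 (adjusted p = 0.0115 and 0.046), and prcp at 3 and 4 dpf, by 0.35 and 0.39 (adjusted p = 0.0229 and 0.0102).

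**Figure D4:**
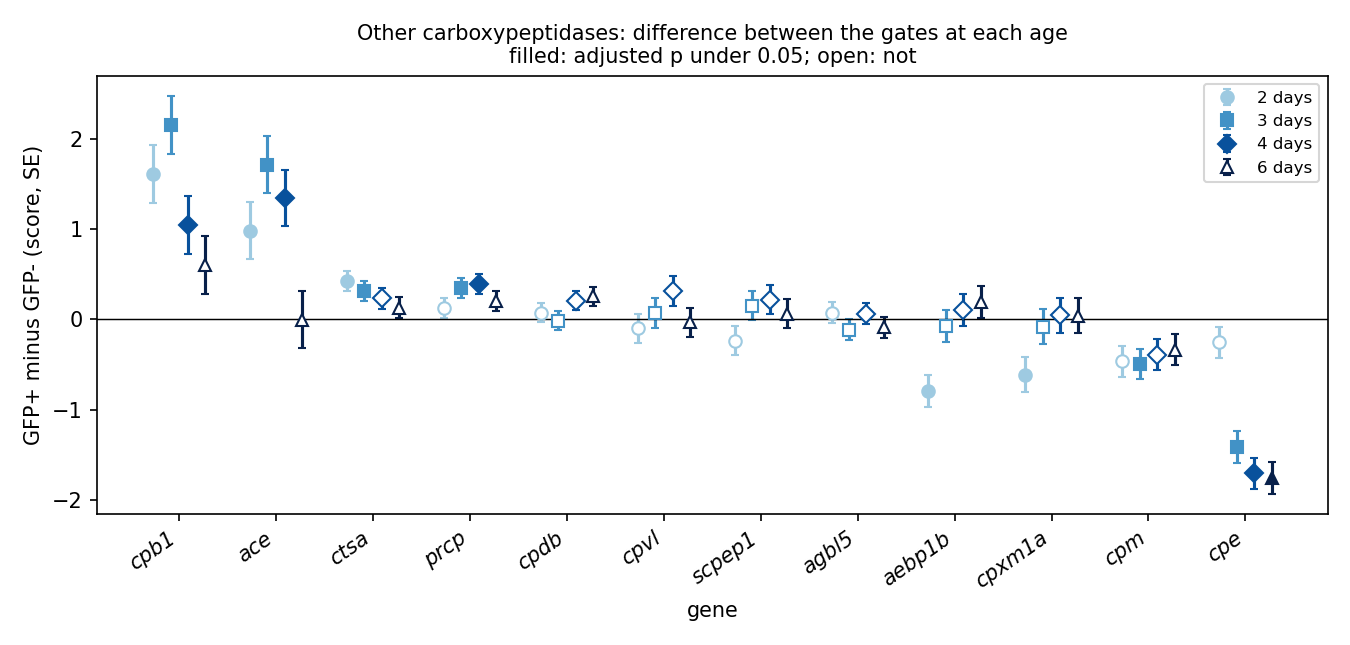
GFP+ minus GFP- difference in score (vertical axis, bars are 1 SE from the limma fit) for the 12 other carboxypeptidases measured, by age in days after fertilization; filled symbols passed an adjusted p of 0.05. cpb1 and ace lie above 0 at 2 to 4 days, cpe lies below 0 from 3 days.

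For each gene the 5 most similar genes were taken by Pearson correlation over the 24 arrays, each gene by its brightest probe set. Such values share the 8 groups and are descriptions. For cpa4 they were pdia2 (r = 0.983), cpb1 (0.977), the elastase cela1.6 (0.966), apoda.2 (0.954) and fetub (0.953). For cpa5 they were the bile salt lipase cel.1 (0.985), the chymotrypsin-like ctrl (0.974), ela2l (0.97), the zymogen granule protein sycn.2 (0.969) and ela3l (0.968). For cpa1 they were the astacin-type protease c6ast3 (0.995), pla2g1b (0.981), cell (0.981), amy2a (0.973) and cep41 (0.973).

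For cpn1 they were the complement gene c3a.6 (0.937), f7i (0.934), malic enzyme me1 (0.934), the fatty acid desaturase fads2 (0.931) and the nuclear receptor nr1h5 (0.929). None of the 5 was a zymogen. Between the members themselves, cpa4 and cpa5 had r = 0.916, cpa4 and cpa1 0.883, and cpa5 and cpa1 0.861, while cpn1 had 0.693 to 0.775 with the pancreatic probe sets.

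cep41, which encodes a centrosomal protein, is not in the acinar lists used here. In the RefSeq gene table it stood next to cpa1 with 0 protein-coding genes between them. Its scores at 3 dpf were 0.23, 0.63 and 0.09 in GFP+ cells against 0.02, -0.11 and -0.13 in GFP- cells. At 4 dpf they were 2.00, 0.20 and 2.05 in GFP+ cells against 0.20, -0.08 and 0.83 in GFP- cells. At 6 dpf they were 2.67, 2.60 and 2.77 in GFP+ cells against 0.99, 0.97 and 1.59 in GFP- cells. The second 4 dpf replicate was the lowest in both gates, as for cpa1. The difference between the gates was 1.097 ± 0.34 at 4 dpf (adjusted p = 0.0196) and 1.50 ± 0.34 at 6 dpf (adjusted p = 0.00179). Whether the cep41 probes also read RNA from cpa1 was not tested, since probe sequences were not used here.

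**Figure D5:**
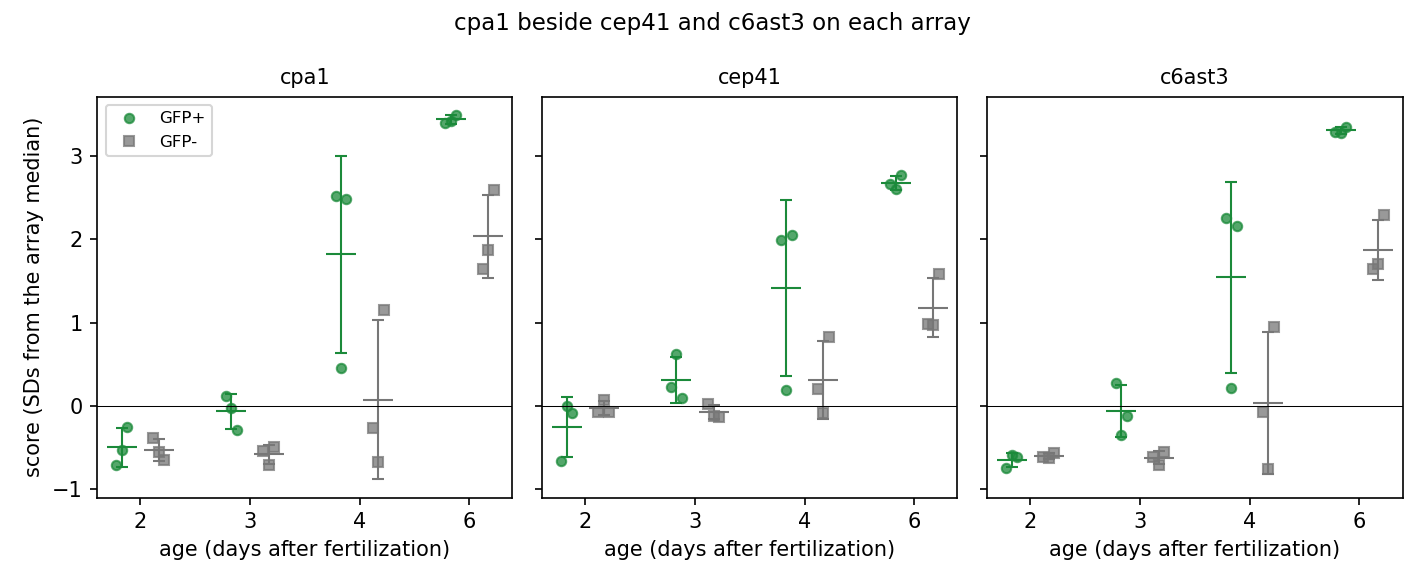
Scores (vertical axis, array SDs from the array median) of cpa1, its chromosomal neighbour cep41 and the most similar gene c6ast3 on each array by age in days after fertilization, GFP+ as green circles and GFP- as grey squares, with group means and bars of 1 SD (n = 3). All 3 genes are near 0 or below at 2 days and highest in GFP+ cells at 6 days.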

How the data were processed

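The deposited values are scores: per the submitters' processing notes the authors summarised the arrays with RMA, and each of the 24 columns has a median of 0 and an SD of 1. How this scaling was done, and on which log base, is not given in the sources used here, so differences in score are reported and no fold changes. After 115 control probe sets were left out, 15502 were tested with limma 3.58.1 in R 4.3.3: a mean for each of 8 groups, contrasts of these, moderated variances and Benjamini-Hochberg adjustment over all probe sets, with a threshold of 0.05. The fit was tested on simulated data. Symbols came from the platform annotation (10795 probe sets had 1 symbol, 135 several, 4572 none) and older symbols from RefSeq synonyms, except that cpo was not matched to cpox. A gene with several probe sets was read on the one with the highest mean score.

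The named genes are the members, the 5 genes most correlated with each, and, from each list, called genes with the largest differences or with a direction against their list; other list genes named were picked after their values were seen. The members and lists were chosen with earlier results of these data known. Same-numbered GFP+ and GFP- samples come from the same replicate according to the series' design text, so a fit with the 12 pairs as a replicate block is given where it changes a call. Residuals of paired arrays correlated at 0.08 on average, over 0.1 in 4 of 12 pairs. Alternatives covered the block, normalization, array weights, filters, thresholds and omitted arrays. No column of per-sample values was left out. Gene order was taken from the RefSeq gene table of GRCz12tu, and no sequences or coordinates are printed.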

Additional observations from a re-analysis of the deposited data

Results flagged for a closer look

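In 3 cases the difference between the gates itself changed with age by the limma test of that change. The GFP+ minus GFP- difference of cpn1 was 1.76 at 6 dpf and -0.78 at 2 dpf, a change of 2.54 ± 0.37 (SE, adjusted p = 0.000208). It was 0.85 at 3 dpf, a change of 1.62 ± 0.37 from 2 dpf (adjusted p = 0.0421). For cpa5 the difference was 2.19 at 3 dpf and -0.51 at 2 dpf, a change of 2.69 ± 0.59 (adjusted p = 0.0355). The 3 cases share the 2 dpf arrays, in which the third GFP- array was the highest of its group for cpn1, at 1.28, and for cpa5, at 0.99. Without that array the change of cpn1 between 6 and 2 dpf was still called (2.34, adjusted p = 0.000955), while the changes between 3 and 2 dpf were not, at 2.44 for cpa5 (adjusted p = 0.122) and 1.43 for cpn1 (adjusted p = 0.142). Over all omissions of a single array the calls between 3 and 2 dpf were lost in 11 of 12 for cpa5 and 10 of 12 for cpn1.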

How the results depend on the processing

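Of 728 values of the members in the 8 leading comparisons, 689 kept both direction and side of the threshold, and the cause of the other changes was not tested. The F test was not among those comparisons in this count. With the replicate pairs as a fixed block, cpa4 gained calls at 2 dpf (second probe set, 1.095, adjusted p = 0.012) and at 6 dpf (brighter, 0.92, adjusted p = 0.00458). cpa1 gained calls for the change of the gate difference between 6 and 2 dpf (1.37, adjusted p = 0.0418) and in the F test (8.64, adjusted p = 0.0368). The block ended no call in these comparisons. With array weights the cpa4 values were 0.98 and 0.82 and both passed, as did the F tests of cpa4 (7.62) and cpa1 (6.56), and the probe sets called numbered 3960 at 2 dpf, 6445 at 3 dpf, 5783 and 4663 between 6 and 2 dpf in GFP+ and GFP- cells, and 3571 for the change of the gate difference, against 2638, 4103, 3434, 2854 and 1306 as reported. A trend with a robust prior gave the brighter probe set of cpa4 a call at 6 dpf (0.92, adjusted p = 0.0428). A minimum mean score of 0 gave calls to the second at 2 dpf (1.095) and the brighter at 6 dpf (0.92). With that filter 5481 probe sets were called over the ages against 9055. Normal scores gave the second probe set of cpa4 1.04 at 2 dpf, called, and 0.78 at 6 dpf, not called. They gave cpa1 0.83 at 6 dpf, not called. They gave cpa1 the opposite sign at 2 dpf (-0.21). The change of the gate difference between 6 and 2 dpf also had the opposite sign for the second probe set of cpa4 (-0.26). With them the cpa5 F was 6.73, not called, and 645 probe sets were called for the change of the gate difference. The pancreatic genes minus cpn1 then had 0.35, with an exact permutation p of 0.0392. The arrays of each comparison alone gave calls to cpa4 at 2 dpf (second probe set, 1.095) and 6 dpf (brighter, 0.92). They did so for cpa1 at 3 dpf (0.52) and cpa5 at 6 dpf (0.65). They also gave calls to cpa5 (1.16) and cpa1 (1.37) for the change of the gate difference between 6 and 2 dpf. They gave none at 4 dpf to cpa4 (1.53 and 1.78), cpa5 (1.50) or cpa1 (1.75), where 2831 probe sets were called against 4696. The mean of both probe sets put cpa4 past the threshold at 6 dpf (1.12, adjusted p = 0.0238). An adjusted p under 0.01 left 1575, 2730, 3030 and 3745 calls at 2, 3, 4 and 6 dpf, 2271 and 1724 between 6 and 2 dpf in GFP+ and GFP- cells, and 603 for the change.

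Without GFP+ 6 dpf replicate 3 and GFP- 4 dpf replicate 3, cpa4 was called at 2 dpf (second probe set, 1.095) and 6 dpf (brighter, 0.90). Opposite signs then appeared in GFP- cells for cpn1 between 4 and 3 dpf (-0.0064) and between 6 and 4 dpf (0.29). In the gate difference they appeared for cpn1 between 6 and 4 dpf (-0.0087). They also appeared there for the second probe set of cpa4 between 4 and 3 dpf (0.21). Leaving out both second replicates of 4 dpf was chosen after seeing the data; it gave F values of 8.58 for cpa4 and 9.92 for cpa1, both called, and -0.0007 for cpn1 between 6 and 4 dpf in GFP+ cells. Leaving out single arrays gave -0.092 to 0.14 for cpa1 and -0.91 to -0.58 for cpn1 at 2 dpf. It gave 0.73 to 0.97 for cpn1 at 3 dpf and 0.77 to 2.06 for cpa5 at 4 dpf. At 6 dpf the second probe set of cpa4 had 1.09 to 1.62 and cpa1 had 1.21 to 1.68. In the gate difference between 6 and 2 dpf the second probe set of cpa4 had -0.0015 to 0.53. F values were 5.92 to 18.0 for cpa5 and 2.57 to 10.4 for cpa1. Among single steps in GFP- cells, such omissions gave -0.11 to 0.019 for cpa1 between 3 and 2 dpf. cpn1 had -0.0064 to 0.63 there between 4 and 3 dpf and -0.35 to 0.29 between 6 and 4 dpf. In GFP+ cells cpn1 had -0.0007 to 0.42 between 6 and 4 dpf. In the gate difference between 6 and 4 dpf, cpa1 had -1.03 to 0.026 and cpn1 had -0.016 to 0.62. Between 4 and 3 dpf the second probe set of cpa4 had -0.80 to 0.21 in the gate difference. The number of arrays, 3 per group, limits the precision, and signal over background was not used here.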
